A study of Mus musculus with 9 samples.

Results

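A set of 9 genes that mark T and NK cells were followed together with Cd274, the gene of PD-L1, in 4T1 tumors from mice on a low-fat or a high-fat diet. The 10 genes were taken by symbol from the 22609 genes of the count files. They comprise the T cell receptor chains Cd3e and Cd3g, the T cell kinase Lck, the coreceptors Cd4 and Cd8a, the regulatory T cell factor Foxp3, the cytotoxic effector genes Gzmb, Prf1 and Nkg7, and Cd274. 4T1 is a single mouse mammary carcinoma line that grows in immunocompetent BALB/c mice, so the tumors can hold host T and NK cells beside the carcinoma cells.

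All mice received 500000 4T1 cells in the mammary fat pad after 6 weeks of diet, and stayed on that diet afterwards. LFD mice ate a chow with 10 kcal% fat and received the vehicle, 0.3% hydroxy propyl cellulose. HFD mice ate a chow with 60 kcal% fat and received the same vehicle. HFD + EC359 mice ate the 60 kcal% fat chow and received EC359, an inhibitor of the leukemia inhibitory factor receptor LIFR, at 5 mg/kg by intraperitoneal injection on 5 days per week. Each group has 3 RNA-seq libraries of tumor RNA, and the age and sex of the BALB/c mice are not given in the sources used here. Neither the labels nor the methods tie a library to a mouse, so the p-values measure the spread between these libraries, which may be technical.

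T cells recognize antigen through a receptor whose signal runs through the CD3 chains and Lck, with CD4 or CD8 as coreceptor. CD8 T cells and NK cells kill with perforin and granzymes, while FOXP3 specifies regulatory T cells, which restrain them. PD-L1, made by carcinoma cells and by myeloid cells, binds PD-1 on T cells and dampens their response, and its transcription is classically driven by interferon gamma through JAK kinases, STAT proteins and IRF1.

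Library totals were 5085357 to 6509130 counts in the LFD group, 7314704 to 7922852 in the HFD group and 8043649 to 9751201 in the HFD + EC359 group. Levels are given as CPM, that is, counts scaled to the library total after TMM normalization, and a count of 0 allows 3 counts, or 0.300 to 0.613 CPM, for counting error only. T and NK cell transcripts were scarce in all libraries. The summed level of the 9 T and NK cell genes was 19.3 to 25 CPM in the LFD group, 17.1 to 17.7 CPM in the HFD group and 23.6 to 27.9 CPM in the HFD + EC359 group. In a bulk tumor, fewer cells of a type and less RNA per cell cannot be told apart. Cd3g, Prf1 and Nkg7 had too few counts for the model and are given as counts, and the other 7 genes were tested among 13366 genes with edgeR's quasi-likelihood test and Benjamini-Hochberg adjustment. Since tested genes had to pass a filter on low counts, the 7 do not stand for all 10.

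**Figure D1:**
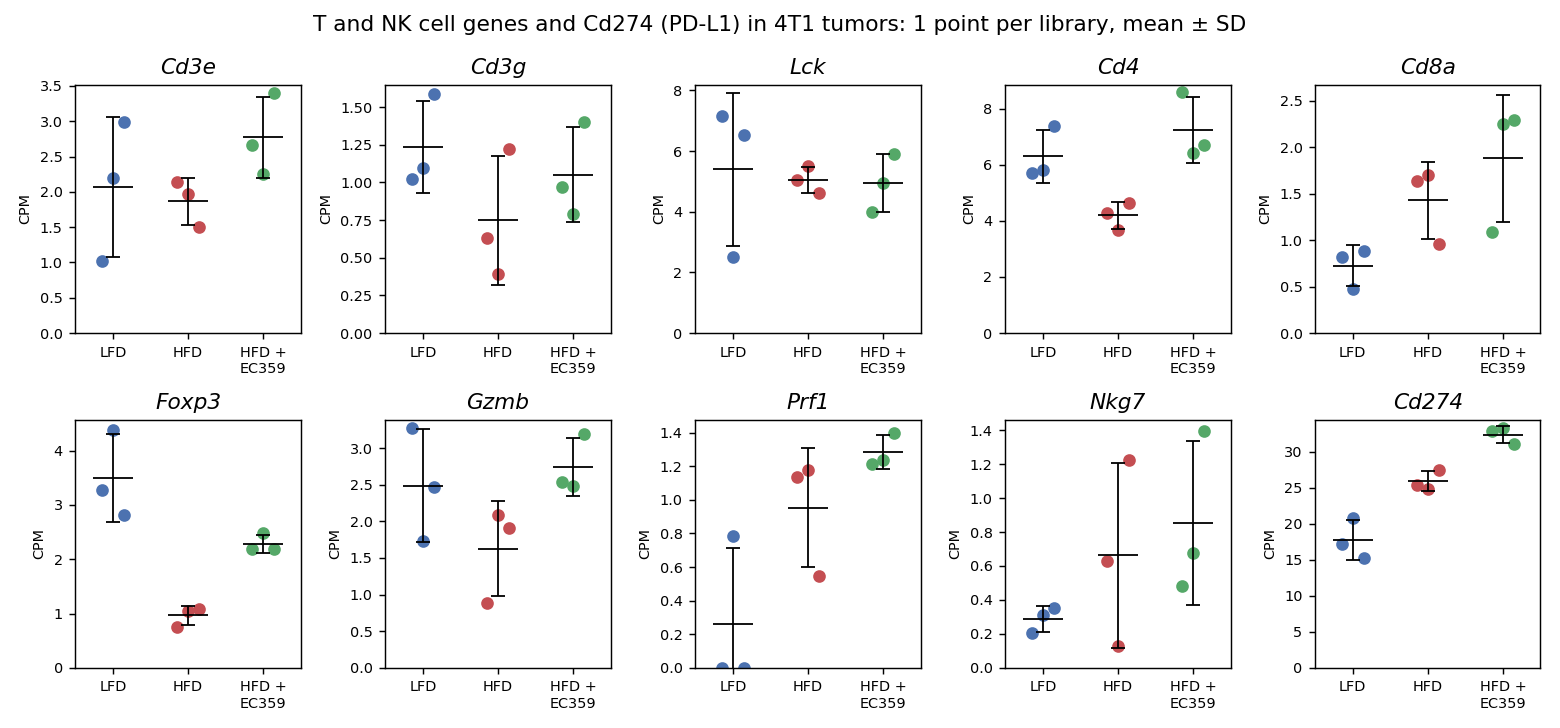
Level of each of the 10 genes in CPM (linear axis from 0) in the 3 LFD, 3 HFD and 3 HFD + EC359 libraries, 1 point per library, with the group mean (wide bar) and SD (capped bar). Foxp3 was lowest in the 3 HFD libraries (0.756 to 1.09 CPM), and Cd274 stepped up from 15.3 to 20.9 CPM in LFD, through 24.9 to 27.5 CPM in HFD, to 31.1 to 33.3 CPM in HFD + EC359.

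Corrected for exonic length, Cd274 stood above the 9 lymphocyte genes in every group, at 4.89 ± 0.775, 7.13 ± 0.381 and 8.90 ± 0.320 CPM per kb (SD, n = 3) in LFD, HFD and HFD + EC359. Lck (2.35 ± 1.10), Cd4 (2.04 ± 0.305), Gzmb (1.76 ± 0.546), Cd3e (1.44 ± 0.690) and Cd3g (1.21 ± 0.298 CPM per kb) followed in the LFD group, and neighbours in this order differed by less than the larger of their SDs. Foxp3 came after these at 0.889 ± 0.206 CPM per kb, and it was the lowest of the 10 per kb in the HFD group at 0.245 ± 0.0462 and in the HFD + EC359 group at 0.582 ± 0.0428. In the HFD + EC359 group Foxp3, Cd8a (0.601 ± 0.219) and Prf1 (0.625 ± 0.0490 CPM per kb) differed by less than the largest of their SDs.

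The comparison of HFD with LFD asks what the diet changed, and that of HFD + EC359 with HFD what the inhibitor changed on that diet. These comparisons share the HFD libraries, and each of them shares libraries with that of HFD + EC359 against LFD, so their results are not independent. With the diet, Cd274 rose while Foxp3 and Cd4 fell. With EC359 on that diet, Foxp3, Cd4 and Cd274 were higher than in HFD tumors. The general T cell genes Cd3e and Lck passed the test in none of the 3 comparisons.

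In HFD against LFD, 1 of the 7 tested genes rose and 2 fell, where 26.0% of all tested genes rose and 25.8% fell. Foxp3 alone also passed the threshold of the study's methods, a fold change over 2 with an adjusted p under 0.01, as did 5.71% of all genes. In 4 of the 7 genes the libraries of both groups did not overlap, against 57.1% of all genes. In HFD + EC359 against HFD, 3 of the 7 rose and 0 fell (12.7% and 13.9% of all genes). Foxp3 passed the stricter threshold here too (3.43% of all genes), and 5 genes had groups that did not overlap (41.3% of all genes). In HFD + EC359 against LFD, 2 of the 7 rose and 0 fell (29.2% and 29.1%), Cd8a passed the stricter threshold (5.09%), and the groups of 3 genes did not overlap (62.9%). Shares of this size among 7 genes are near the background for the diet comparison. What the genes did is therefore given gene by gene.

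**Figure D2:**
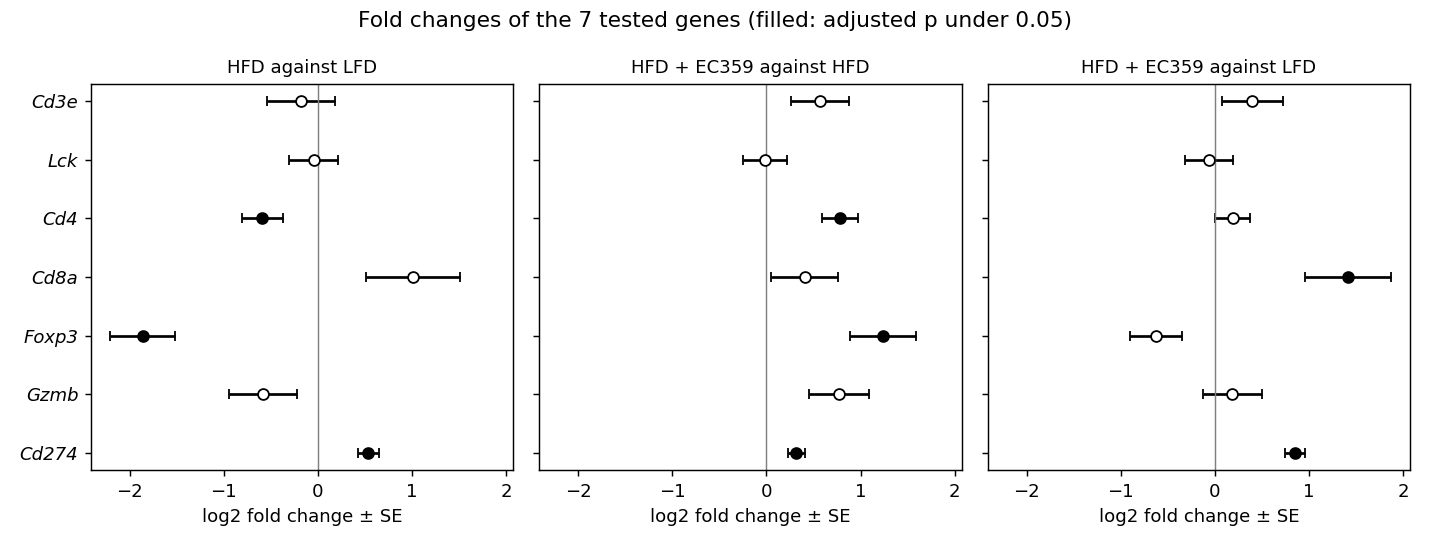
Log2 fold change of the 7 tested genes with its SE (bars) for the diet (left panel), for EC359 on the high-fat diet (middle panel) and for HFD + EC359 against LFD (right panel), where a filled point marks an adjusted p under 0.05. Foxp3 lay at -1.86 in the left panel and 1.24 in the middle one, Cd4 at -0.59 and 0.78, and Cd274 to the right of 0 in all 3 panels.

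Cd3e, the signaling chain present in every T cell receptor complex (mm9 chr9:44806826-44817673, minus strand), had 1.02, 2.20 and 2.99 CPM in the LFD libraries, 2.14, 1.96 and 1.497 CPM in the HFD libraries and 2.67, 2.25 and 3.40 CPM in the HFD + EC359 libraries. All HFD + EC359 libraries lay above all HFD libraries, while the LFD libraries spanned both. The log2 fold change was -0.18 ± 0.361 (SE, adjusted p = 0.707) in HFD against LFD and 0.57 ± 0.307 (adjusted p = 0.179) in HFD + EC359 against HFD. Cd3g (chr9:44777655-44788514, minus strand), which encodes another chain of the same complex, had 5, 7 and 9 counts in LFD, 5, 3 and 9 in HFD and 8, 7 and 14 in HFD + EC359. Its groups overlapped in all comparisons, and the ratio of the summed counts per depth, HFD over LFD, was 0.616 with a 95% counting interval of 0.305 to 1.23. Such intervals, here and below, hold counting error only and leave out the spread between libraries.

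Lck (chr4:129225588-129250885, minus strand), the kinase that starts T cell receptor signaling, showed the widest scatter in LFD, with 7.15, 2.51 and 6.51 CPM. The HFD libraries had 5.04, 5.50 and 4.63 CPM and the HFD + EC359 libraries 4.00, 4.96 and 5.89 CPM. The second LFD library lay below all 8 others and the remaining LFD libraries above all of them. The log2 fold changes were -0.05 ± 0.259 with the diet (adjusted p = 0.897) and -0.02 ± 0.236 with EC359 (adjusted p = 0.969), and their sign depended on single libraries.

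Cd4 (chr6:124814711-124838227, minus strand), the coreceptor of helper and regulatory T cells, is also found on some dendritic cells of the mouse. It had 5.72, 5.80 and 7.39 CPM in LFD, 4.28, 3.66 and 4.63 CPM in HFD and 8.60, 6.43 and 6.69 CPM in HFD + EC359. The HFD libraries were the lowest 3 of the 9 and overlapped neither other group. Cd4 fell 1.51-fold with the diet (log2 fold change -0.59 ± 0.216, adjusted p = 0.0221) and was 1.72-fold higher with EC359 than in HFD (0.78 ± 0.192, adjusted p = 0.00229). Against LFD, the HFD + EC359 tumors differed by 0.19 ± 0.189 (adjusted p = 0.402). The fall with the diet missed the threshold without the third LFD library (-0.46, adjusted p = 0.125), without the second HFD library (-0.50, adjusted p = 0.0823) and with DESeq2. The rise with EC359 missed it narrowly after thinning to the smallest library total (0.62, adjusted p = 0.0504).

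Cd8a (chr6:71323421-71329165, plus strand), the coreceptor of cytotoxic T cells and also a marker of cross-presenting dendritic cells, moved differently. Its counts were 4, 3 and 5 in LFD (0.817, 0.470 and 0.880 CPM), 13, 13 and 7 in HFD (1.64, 1.70 and 0.953 CPM) and 9, 20 and 23 in HFD + EC359 (1.09, 2.25 and 2.30 CPM). All libraries of both 60 kcal% fat groups lay above all LFD libraries, and those groups overlapped each other. Against LFD, Cd8a was 2.66-fold higher in HFD + EC359 (log2 fold change 1.41 ± 0.458, adjusted p = 0.00894), while the difference in HFD did not pass the test (1.01 ± 0.499, adjusted p = 0.0912). HFD + EC359 and HFD differed by 0.41 ± 0.355 (adjusted p = 0.443). The call against LFD was lost without the second LFD library (1.14, adjusted p = 0.0642). Summed over libraries, 12, 33 and 52 counts stand behind these values, and the ratio of HFD + EC359 to LFD had a counting interval of 1.501 to 5.87.

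Foxp3 (chrX:7156802-7172369, plus strand), the transcription factor that defines regulatory T cells, had the largest diet difference of the 7 tested genes. It had 3.27, 4.39 and 2.82 CPM in LFD (16, 28 and 16 counts), 0.756, 1.05 and 1.09 CPM in HFD (6, 8 and 8 counts) and 2.18, 2.48 and 2.20 CPM in HFD + EC359 (18, 22 and 22 counts). The 3 groups did not overlap, with LFD highest, HFD lowest and HFD + EC359 between them. Foxp3 fell 3.63-fold with the diet (log2 fold change -1.86 ± 0.345, adjusted p = 3.31e-05), and it was 2.36-fold higher in HFD + EC359 than in HFD (1.24 ± 0.348, adjusted p = 0.00742). The HFD + EC359 tumors stayed below LFD without passing the test (-0.63 ± 0.279, adjusted p = 0.0543), and passed it without the third LFD library (-0.77, adjusted p = 0.0363). The fall with the diet passed in all 18 alternative settings (-2.00 to -1.55). The difference between HFD + EC359 and HFD passed in 17 of 18 and missed the threshold after thinning (0.91, adjusted p = 0.131). Foxp3 overlaps the gene 4930524L23Rik on its own strand, and no library held a fractional Foxp3 count.

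Foxp3 was also set against Cd4 within each library, which needs no scaling. Per 100 Cd4 counts in the same library there were 57.1, 75.7 and 38.1 Foxp3 counts in LFD, 17.7, 28.6 and 23.5 in HFD and 25.4, 38.6 and 32.8 in HFD + EC359. All LFD libraries lay above all HFD libraries, and the log2 ratio differed by -1.21 (exact permutation test, two-sided p = 0.1, the smallest that 3 against 3 allows, n = 3 per group). HFD + EC359 exceeded HFD by 0.43 on this scale with overlapping libraries (exact permutation p = 0.2, n = 3 per group).

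**Figure D3:**
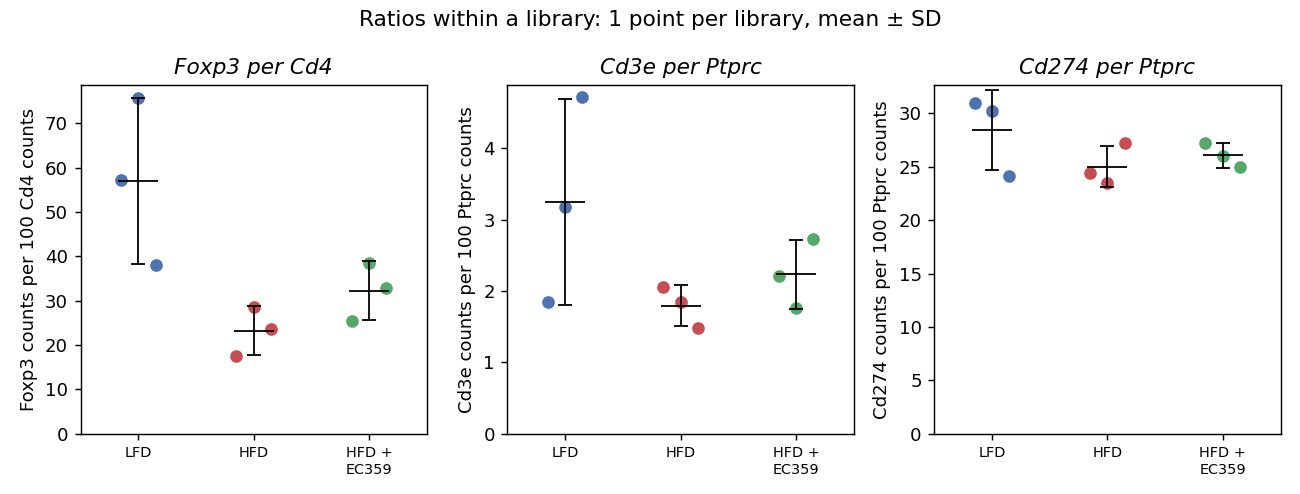
Counts of Foxp3 per 100 Cd4 counts, of Cd3e per 100 Ptprc counts and of Cd274 per 100 Ptprc counts in each library (linear axes from 0), with the mean and SD of the 3 libraries of a group. Foxp3 per Cd4 was 38.1 to 75.7 in LFD and 17.7 to 28.6 in HFD, whereas Cd274 per Ptprc overlapped between all groups (23.5 to 31.0 over the 9 libraries).

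Summed levels of epidermis and of mast cell markers were also lowest in the HFD group. The sums of the carcinoma epithelium and macrophage genes given below were lowest there too. Those of 6 epidermis genes, keratins among them, were 1089 to 1258 CPM in LFD, 174 to 188 CPM in HFD and 511 to 517 CPM in HFD + EC359. Of these 6, 4 fell with the diet (Krt1, Krt5, Krt14 and Lor), while Flg2 rose, and 5 rose with EC359. The 4 mast cell genes summed to 78.1 to 79.97, 20.8 to 23.8 and 96.8 to 103.6 CPM, and all 4 fell with the diet and rose with EC359. The mast cell sum was highest in HFD + EC359, where 3 of the 4 genes were higher than in LFD, unlike Foxp3. None of the 5 lymph node genes had enough counts for the model, and their sum was 0.176 to 0.817 CPM in LFD, 0.136 to 1.01 CPM in HFD and 0.225 to 0.499 CPM in HFD + EC359, with Fcer2a at 0 in all libraries. Ccl21a, a chemokine of lymph node stroma and lymphatic vessels, had 4, 4 and 0 counts in LFD, 0 in each HFD library and 1, 1 and 2 in HFD + EC359, and it was lower with the diet when all genes with at least 1 count were fitted (adjusted p = 0.0108). The part of these tissues in the Foxp3 and Cd4 results was not tested.

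Gzmb (chr14:56877695-56881097, minus strand) encodes granzyme B, a protease that cytotoxic cells deliver into their targets. Its level was 3.27, 1.73 and 2.47 CPM in LFD, 0.882, 2.09 and 1.91 CPM in HFD and 2.54, 2.48 and 3.20 CPM in HFD + EC359. All HFD + EC359 libraries lay above all HFD libraries, yet the difference did not pass the test (log2 fold change 0.77 ± 0.319, adjusted p = 0.0737), nor did that between HFD and LFD (-0.58 ± 0.362, adjusted p = 0.179). With the 6 libraries of the comparison alone, the EC359 difference just passed (adjusted p = 0.0483).

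Prf1 (chr10:60760584-60767011, plus strand) encodes perforin, which opens the way for granzymes. It had 0, 5 and 0 counts in LFD, 9, 9 and 4 in HFD and 10, 11 and 14 in HFD + EC359. Every HFD + EC359 library exceeded every library of the other groups. The summed counts per depth gave a ratio of 4.603 for HFD + EC359 over LFD (95% counting interval 1.80 to 15.1), 3.35 for HFD over LFD (1.24 to 11.3) and 1.37 for HFD + EC359 over HFD (0.784 to 2.46). When all genes with at least 1 count were fitted, Prf1 passed in HFD + EC359 against LFD (adjusted p = 0.00522) and missed in HFD against LFD (adjusted p = 0.0550).

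Nkg7 (chr7:50692508-50693616, plus strand), a granule protein of NK and cytotoxic T cells, had 1, 2 and 2 counts in LFD, 5, 1 and 9 in HFD and 4, 6 and 14 in HFD + EC359. The HFD libraries overlapped both other groups. The ratio of HFD + EC359 to LFD was 3.16 with a counting interval of 1.18 to 10.6, and that of HFD + EC359 to HFD 1.38 (0.696 to 2.83). At this depth no diet or drug effect on Nkg7 was detectable by the model over all genes (adjusted p = 0.290 and 0.686). The difference between HFD + EC359 and LFD missed the threshold in the same edgeR model (adjusted p = 0.0824).

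Cd274 (chr19:29441928-29462584, plus strand) was the most abundant of the 10 genes and rose in both steps. It had 17.2, 20.9 and 15.3 CPM in LFD (84, 133 and 87 counts), 25.4, 24.9 and 27.5 CPM in HFD (202, 190 and 202 counts) and 32.8, 33.3 and 31.1 CPM in HFD + EC359 (271, 295 and 311 counts). No library of a group overlapped another group. Cd274 was 1.45-fold higher in HFD than in LFD (log2 fold change 0.53 ± 0.112, adjusted p = 0.000167), 1.25-fold higher in HFD + EC359 than in HFD (0.32 ± 0.0928, adjusted p = 0.00947) and 1.81-fold higher in HFD + EC359 than in LFD (0.85 ± 0.106, adjusted p = 2.65e-08).

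The rises of Cd274 against LFD passed in all 19 alternative settings, from 0.36 to 0.67 for HFD and from 0.63 to 0.99 for HFD + EC359. Their lowest values came from removing each library's trend with GC content and length, and the exons of Cd274 have a GC content of 45.0%. The step from HFD to HFD + EC359 passed in 18 of 19 and just missed the threshold without the second HFD library (0.29, adjusted p = 0.0517).

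Of 5 general leukocyte genes, 4 rose in both steps as Cd274 did (Ptprc, Laptm5, Cd52 and Cd53), while Coro1a fell with the diet. Of 6 macrophage genes, 3 rose (Emr1, Cd68 and Csf1r) and 1 fell (Mrc1) with the diet, and all 6 rose with EC359. Ptprc, which encodes the leukocyte antigen CD45, had 55.4 to 69.0 CPM in LFD, 101.1 to 106.0 CPM in HFD and 120.4 to 128.0 CPM in HFD + EC359. Per 100 Ptprc counts, Cd274 had 24.2 to 31.0 counts in LFD, 23.5 to 27.2 in HFD and 24.96 to 27.3 in HFD + EC359. Relative to Ptprc, the groups thus overlapped. The log2 differences were -0.18 (HFD minus LFD, exact permutation p = 0.3, n = 3 per group) and 0.06 (HFD + EC359 minus HFD, exact permutation p = 0.4, n = 3 per group). With the diet, the log2 fold change was 0.72 for Ptprc, 0.85 for Cd53 and 1.85 for Cd52, but 0.13 for Laptm5 and -0.50 for Coro1a. Ratios of Cd274 to the other leukocyte genes were not tested, so this overlap holds for Ptprc alone. Cd3e per 100 Ptprc counts was 1.85 to 4.72 in LFD, 1.48 to 2.05 in HFD and 1.76 to 2.73 in HFD + EC359, again with overlap (log2 differences -0.79 and 0.29, exact permutation p = 0.2 and 0.3, n = 3 per group). The summed level of 6 macrophage genes was 1310 to 1342, 1246 to 1259 and 1577 to 1596 CPM in the 3 groups, and that of 4 epithelial genes of the carcinoma was 1112 to 1133, 702 to 712.7 and 761 to 789 CPM. Which cells carried the Cd274 transcripts was not tested.

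The sequence just upstream of an annotated start is shown for Cd274 and Foxp3, the members with the firmest changes. Both genes have well-known inputs from the interferon and STAT pathways. For Foxp3 the start printed is the one whose window held a match. The 250 bases before the start are from RefSeq (GRCm38.p6), which gave a window for 9 of the 10 genes and 11 windows in all. Capitals mark matches to GAAANNGAA, the core of an interferon regulatory factor element, or to TTCNNNGAA, the gamma-activated site bound by STAT proteins, searched on both strands.
Cd274, chr19:29367188-29367437, plus strand: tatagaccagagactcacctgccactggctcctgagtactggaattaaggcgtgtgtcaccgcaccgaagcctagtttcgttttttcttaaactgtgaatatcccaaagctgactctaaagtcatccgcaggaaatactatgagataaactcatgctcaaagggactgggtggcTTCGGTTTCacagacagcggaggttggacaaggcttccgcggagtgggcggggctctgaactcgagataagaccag
Foxp3, chrX:7580233-7580482, plus strand, downstream of its other annotated start: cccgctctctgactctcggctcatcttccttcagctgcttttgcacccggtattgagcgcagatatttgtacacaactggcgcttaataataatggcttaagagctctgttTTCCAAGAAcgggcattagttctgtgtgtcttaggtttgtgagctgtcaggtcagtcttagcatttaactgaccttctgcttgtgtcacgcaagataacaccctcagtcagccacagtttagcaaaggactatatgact
In Cd274 the capitals begin 76 bases before the start and match the first pattern on the reverse strand, and in Foxp3 they begin 139 bases before it and match the second on the forward strand. Over windows from 250 bases before to 50 after the start, the first pattern occurs in 8.56% of all 32851 RefSeq windows and in 1 of the 11 member windows, that of Cd274. The second occurs in 8.30% of all windows and in 3 of the 11, those of Nkg7, Gzmb and this start of Foxp3. The RUNX pattern TGTGGTT, sought because RUNX factors act in T and NK cells, occurs in 5.27% of all windows and in 2 of the 11 (Lck and Gzmb). These are matches of letters in a window and not measured binding sites. The Cd274 stretch matched the mm9 genome of the counts once, at chr19:29441678-29441927, directly before the first exon and over an exon of 5033414D02Rik on the opposite strand. The printed Foxp3 stretch lay at mm9 chrX:7157359-7157608, within Foxp3 and over an exon of 4930524L23Rik on the same strand. The window of the other Foxp3 start, at mm9 chrX:7156552-7156801 and directly before the counted gene, held no match and is not printed.

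All 12 genes of the route from the interferon gamma receptor to PD-L1 were tested. With the diet 1 rose and 4 fell (median log2 fold change -0.03, against 0.01 over all genes). With EC359 1 rose and 3 fell (median 0.01). Over all tested genes, 26.0% rose and 25.8% fell with the diet, and 12.7% rose and 13.9% fell with EC359. These shares are the background for the lists below as well. Irf1, named below for its likeness to Cd3e, held 184 ± 12.6, 189 ± 5.54 and 194 ± 5.50 CPM (SD, n = 3) and did not pass (adjusted p = 0.553 and 0.592). Jak2, a kinase at the interferon gamma receptor, fell in both steps, by 0.16 and 0.20 on the log2 scale (adjusted p = 0.000519 and 9.32e-05).

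Cmtm6 and Cmtm4, whose proteins hold PD-L1 at the cell surface, went opposite to Cd274. Cmtm6 had 142 ± 8.61 CPM in LFD, 105 ± 1.54 CPM in HFD and 95.2 ± 3.11 CPM in HFD + EC359 (SD, n = 3), with log2 fold changes of -0.43 ± 0.0509 (adjusted p = 2.08e-08) and -0.15 ± 0.0503 (adjusted p = 0.0308). Cmtm4 fell with the diet (-0.55 ± 0.0946, adjusted p = 1.24e-05) and did not pass with EC359 (-0.19 ± 0.0951, adjusted p = 0.145), though it passed without the second HFD library (-0.30, adjusted p = 0.0314). Stat3, the main STAT protein downstream of LIFR, did not pass with the diet (-0.05, adjusted p = 0.260) and was lower in HFD + EC359 than in HFD (-0.13 ± 0.0369, adjusted p = 0.00742). The Cmtm6 and Stat3 differences with EC359 missed the threshold in 7 and 2 of 19 alternatives.

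**Figure D4:**
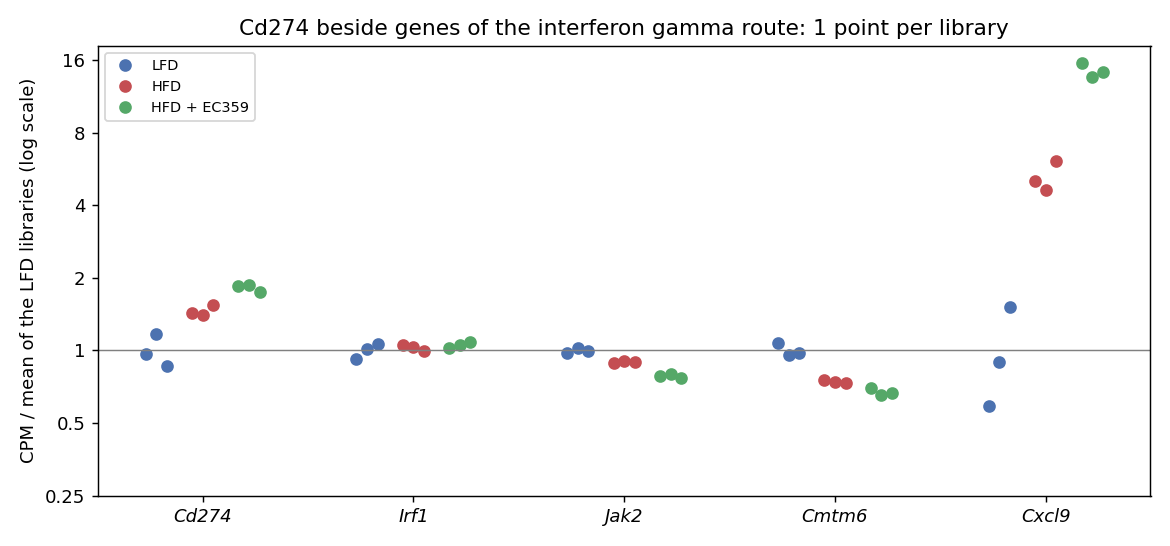
Level of Cd274, Irf1, Jak2, Cmtm6 and Cxcl9 in each of the 9 libraries, divided by the mean of the 3 LFD libraries (log scale, 1 point per library). Cxcl9 rose most, from 0.613 to 1.58 CPM in LFD to 14.2 to 16.2 CPM in HFD + EC359, and Jak2 and Cmtm6 went down while Cd274 went up.

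Of 14 chemokines and cytokines that draw or sustain T and NK cells, 10 were tested. With the diet 4 rose and 1 fell (median 0.56), and with EC359 4 rose and 0 fell (median 0.23). Cxcl9, the interferon gamma-induced ligand of CXCR3 on activated T cells, had 0.613, 0.941 and 1.58 CPM in LFD, 5.29, 4.84 and 6.40 CPM in HFD and 16.2, 14.2 and 14.9 CPM in HFD + EC359. It rose 5.11-fold with the diet (log2 fold change 2.35 ± 0.305, adjusted p = 9.67e-08) and 2.74-fold further with EC359 (1.45 ± 0.153, adjusted p = 4.29e-09). Cxcl16, a membrane-bound chemokine, was higher in HFD + EC359 than in HFD by 0.28 ± 0.0590 (adjusted p = 0.000509) and than in LFD by 0.17 ± 0.0616 (adjusted p = 0.0167, missed in 4 of 19 alternatives).

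The T cell signaling list around Cd3e and Lck gave a different picture from Cd274. Of its 21 genes 9 were tested, and with the diet 6 fell (Cd5, Cd6, Zap70, Lat and Bcl11b among them) and 2 rose, with a median of -1.34 over these 9. With EC359 on that diet 3 rose (Zap70 and Bcl11b among them) and 0 fell, with a median of 0.48. With at least 10 counts in every library, 2 fell with the diet and 1 rose with EC359. The untested genes of this list had at most 13 counts in a library. When all genes with at least 1 count were fitted, they went both ways with the diet, and none was called. The summed level of all 21 genes overlapped between LFD (70.8 to 78.3 CPM) and HFD (69.0 to 75.5 CPM). Bcl11b, a T cell factor that keratinocytes and mammary epithelium also express, had 16.2 ± 1.25, 4.68 ± 0.674 and 8.55 ± 1.175 CPM (SD, n = 3), with -1.79 ± 0.166 (adjusted p = 9.28e-11) and 0.88 ± 0.173 (adjusted p = 0.000218). The genes that rose with the diet were Lcp2, an adaptor of T cells that myeloid cells also use (0.83 ± 0.101, adjusted p = 3.13e-08), and Tcf7, a factor of naive and memory T cells (0.42 ± 0.151, adjusted p = 0.0208, missed in 4 of 19 alternatives).

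Of 14 genes of regulatory and helper T cells, 9 were tested. With the diet 3 rose and 3 fell (median -0.34), against 26.0% and 25.8% of all tested genes. With EC359 3 rose and 1 fell (median 0.53), against 12.7% and 13.9%. Ctla4, Tnfrsf18 and Tnfrsf4 fell with the diet, while Ikzf2 and Tnfrsf9 were among the genes of the same list that rose. Tnfrsf18, which encodes GITR, had 3.61 ± 2.23 CPM in LFD, 1.08 ± 0.382 CPM in HFD and 2.20 ± 0.952 CPM in HFD + EC359 (SD, n = 3), with -1.65 ± 0.431 (adjusted p = 0.00179) and 0.97 ± 0.436 (adjusted p = 0.102). The EC359 difference passed in 4 of 18 alternatives (lowest adjusted p = 0.0273). Il2ra, the interleukin 2 receptor chain CD25, just missed the threshold with the diet (-0.74 ± 0.316, adjusted p = 0.0507), which it passed in 7 of 19 alternatives (lowest adjusted p = 0.0123), and was higher with EC359 (0.995 ± 0.277, adjusted p = 0.00689, or 0.82 and adjusted p = 0.0590 without the second HFD + EC359 library). Ikzf2, whose values are given after they were seen, rose with the diet (0.40 ± 0.114, adjusted p = 0.00379) and with EC359 (0.32 ± 0.0957, adjusted p = 0.0119). Tnfrsf9, the costimulatory receptor 4-1BB, rose with the diet (0.24 ± 0.0889, adjusted p = 0.0251, missed in 6 of 19 alternatives) and fell with EC359 (-0.32 ± 0.0828, adjusted p = 0.00382).

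**Figure D5:**
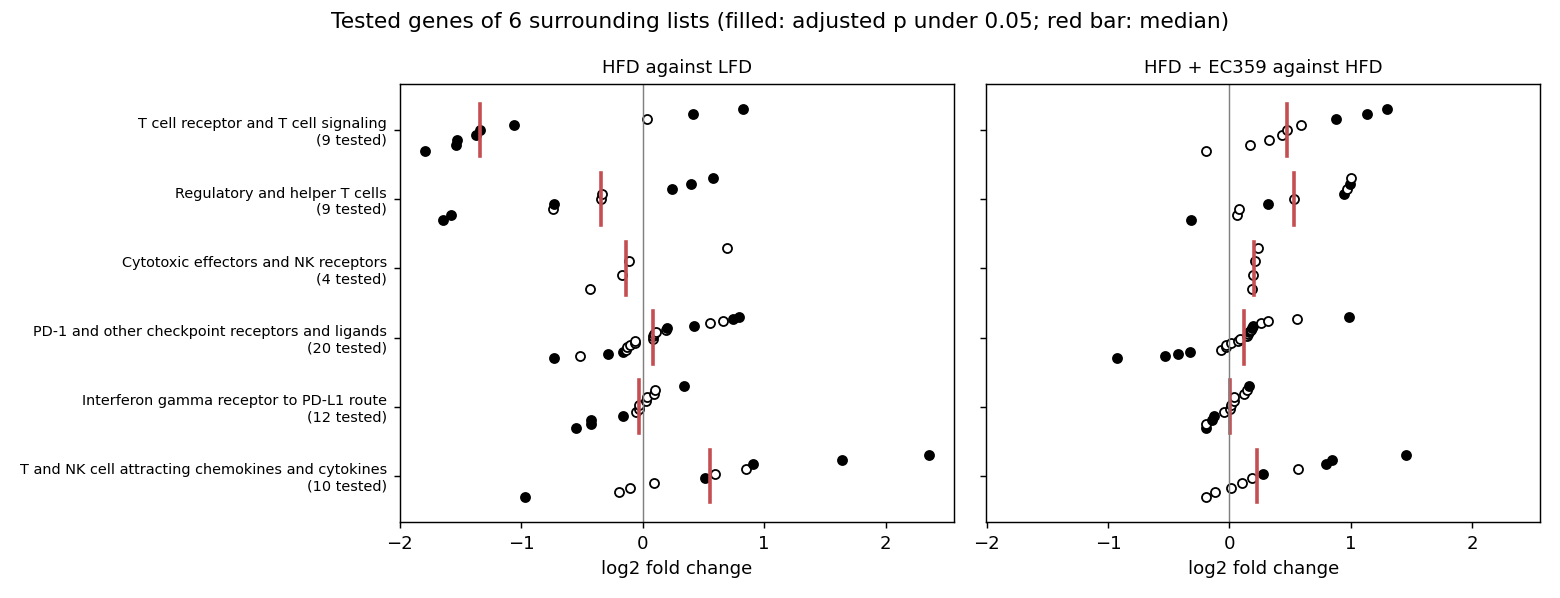
Log2 fold change of each tested gene of 6 lists around the 10 genes, in HFD against LFD and in HFD + EC359 against HFD, with filled points for an adjusted p under 0.05 and a red bar for the list's median. Over the 9 tested genes of the T cell signaling list the median went from -1.34 in the left panel to 0.48 in the right one. None of the 4 tested cytotoxic and NK genes was called.

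Cytotoxic and NK cell genes were close to the detection limit. Of 30 listed genes only 4 were tested, and 0 passed in any of the 3 comparisons with edgeR or DESeq2. At an unadjusted p under 0.05, 1 did with the diet (Il18rap) and 0 in the other comparisons. The other 26 never exceeded 15 counts in a library, and Gzmn had 0 counts in all 9. The tested ones with the highest level, Cd244 and Il18rap, which myeloid cells also express, had 11.8 to 13.4 and 5.91 to 7.87 CPM as group means. Neither passed the threshold between groups, but Il18rap was lower with the diet in 2 of 19 alternatives (lowest adjusted p = 0.0134, without the first LFD library).

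Of 25 checkpoint receptors and ligands 20 were tested. The numbers that rose and fell were similar, 4 and 3 with the diet and 4 and 4 with EC359. Over all tested genes, the shares were 26.0% and 25.8% with the diet and 12.7% and 13.9% with EC359. Pdcd1, the gene of the PD-L1 receptor PD-1, chosen after its values were seen, had 0.613, 0.941 and 0.176 CPM in LFD, 1.51, 0.262 and 0.817 CPM in HFD and 1.21, 1.35 and 1.30 CPM in HFD + EC359. It did not pass in any comparison (lowest adjusted p = 0.0845, HFD + EC359 against LFD). Pdcd1lg2, the gene of PD-L2 and also chosen after its values were seen, did not follow Cd274 with the diet (-0.52 ± 0.255, adjusted p = 0.0876) but was 1.98-fold higher in HFD + EC359 than in HFD (0.99 ± 0.217, adjusted p = 0.000712).

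Among the checkpoint genes named by level or lowest p, Entpd1, the ectoenzyme CD39, rose with the diet (0.42 ± 0.0816, adjusted p = 5.81e-05), and Pvr, a ligand of TIGIT, fell (-0.29 ± 0.0630, adjusted p = 0.000291). Cd276, the B7-H3 ligand, and Pvrl2, another ligand of the TIGIT family, were lower in HFD + EC359 than in HFD, by -0.33 ± 0.0539 (adjusted p = 1.80e-05) and -0.42 ± 0.0525 (adjusted p = 1.26e-07). Sirpa, a receptor of myeloid cells, fell with the diet (-0.17 ± 0.0436, adjusted p = 0.00198, or -0.03 and adjusted p = 0.550 without the GC and length trend) and was higher with EC359 (0.18 ± 0.0417, adjusted p = 0.00118). Its ligand Cd47 was higher with EC359 by 0.16 ± 0.0507 (adjusted p = 0.0186, missed in 5 of 19 alternatives).

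The genes whose log2 CPM followed Cd274 most closely over the 9 libraries were Vps13a and Kdm3a (Pearson's r = 0.989 each), Nptn and Atp5c1 (0.988 each) and AW549877 (0.987). Those closest to Cd3e were Chchd3 (0.964), 2010107H07Rik (0.936), Npff (0.926), Irf1 (0.913) and Mylk2 (0.912). Among the members, r with Cd3e was 0.478 for Cd4, 0.354 for Cd8a, 0.299 for Cd274, 0.071 for Foxp3, 0.019 for Gzmb and -0.153 for Lck. These values describe 9 libraries that share 3 groups and their depths, and they carry no test.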

How the data were processed

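RNA was extracted from 4T1 tumors and sequenced as stranded paired-end mRNA libraries. Per the file headers, the authors made expected counts of read pairs per gene with featureCounts 1.5.0-p1 on mm9 exons, splitting pairs over several genes or positions into fractions, without normalization. HISAT2 2.1.0 is named in the submitters' processing notes, while the paper's methods name TopHat2 and HTSeq. Between 1.19% and 3.55% of genes per library held fractions, which were rounded. Genes were filtered with filterByExpr, scaled with TMM and fitted over all 9 libraries with edgeR 4.0.16 in R 4.3.3 (limma 3.58.1 and DESeq2 1.42.0 for alternatives). The spread between libraries that edgeR calls the biological coefficient of variation was 3.63%, and this spread may be technical. Ratios of counts within a library (with 0.5 added) were compared by exact permutation tests. The members and lists were chosen with earlier results of these data known. Genes of the lists were named by the 2 highest mean levels and the 2 lowest p-values among called genes in each of the first 2 comparisons. The 5 genes most correlated with Cd3e and with Cd274 were named too. Other names from the lists are marked in the text, with some exceptions. Cd5, Cd6, Zap70, Lat, Ctla4 and Tnfrsf4 were named because they were called, and Gzmn for its counts of 0. Lists are described by counts and medians, without a set test. The edgeR fit of HFD against LFD was tested on counts simulated from its own estimates, with known folds planted in HFD. The other steps were not tested in this way. Alternatives were DESeq2, other scaling factors, other filters, the 6 libraries of a comparison, a replicate block, unrounded or thinned counts, removal of GC and length trends, other added constants for ratios, and each library left out. Results of a few genes of the lists are not reported here.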

Additional observations from a re-analysis of the deposited data

How the results depend on the processing

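The number of members that rose with the diet was 2 in place of 1 after thinning to the smallest library total, since Cd8a then passed (1.45, adjusted p = 0.0271 in edgeR's quasi-likelihood test). The number that fell was 1 in place of 2 with DESeq2 and with at least 10 counts in every library, a filter that left Lck, Cd4 and Cd274 alone to test, and it ranged from 1 to 2 with each library left out. In HFD + EC359 against HFD, 1 in place of 3 rose after thinning. In HFD + EC359 against LFD, 1 in place of 2 rose under the 10-count filter and with the 6 libraries alone. With a library left out the numbers were 1 to 2 higher and 0 to 1 lower there. Fits with a replicate block gave 1 higher and 2 lower with the diet, 3 and 0 with EC359, and 2 and 0 against LFD. The block changed no call of a member. Deviations of libraries with the same number correlated between -0.03 and 0.118, so the numbers give no pairing, and the paired difference of Foxp3 per Cd4 stayed at -1.21.

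Values near 0 changed sign. Without the GC and length trend, Lck turned to 0.086 for the diet, 0.005 for EC359 on that diet and 0.091 for HFD + EC359 against LFD, and to 0.015 and 0.012 in the last 2 with library totals alone. With each library left out it ranged from -0.433 to 0.197, -0.175 to 0.106 and -0.453 to 0.180. Cd3e with the diet ranged from -0.454 to 0.156 in the same way, and Gzmb against LFD from -0.050 to 0.408. In HFD + EC359 against LFD, Cd244 turned to -0.173 without the GC trend and ranged from -0.035 to 0.085, and Sirpa from -0.023 to 0.044. Without the GC trend, Cd47 was -0.054 and Cd276 0.003 with the diet. Pvr with EC359 was 0.002 with library totals and -0.058 to 0.004 with each library left out. With each library left out, log2 ratios ranged from -0.502 to 0.120 for Cd8a per Cd3e with EC359, and for Gzmb per Cd3e from -0.923 to 0.037 with the diet and -0.218 to 0.560 with EC359. The cause was not tested.

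Counts over the surrounding lists also moved. Over all alternatives, T cell signaling ranged from 1 to 2 higher and 2 to 6 lower with the diet, 1 to 3 higher with EC359 and 1 to 2 higher against LFD. The regulatory and helper list ranged from 1 to 3, 1 to 4 and 1 to 2 higher and, against LFD, 0 to 1 lower. Cytotoxic genes ranged from 0 to 3 higher and 0 to 1 lower with the diet and 0 to 2 higher against LFD. The 3 and 2 higher came with all genes fitted, and the 1 lower came without the GC and length trend and without the first LFD library. The interferon route ranged from 0 to 1 higher and 1 to 3 lower with EC359 and 1 to 6 higher against LFD (6 with library totals alone), and the chemokines from 2 to 4, 2 to 5 and 4 to 8 higher. Counts of checkpoint genes stayed within 1.5 times.

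Of all genes called in HFD + EC359 against HFD, 47.8% were higher, and 58.3% with library totals alone. Most members rest on under 40 counts per library, so small differences were not detectable at this depth.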

Other observations

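Tigit, a checkpoint receptor of T and NK cells chosen after its values were seen, fell in both steps, opposite to Cd274. It had 8.17, 7.37 and 7.39 CPM in LFD, 4.28, 5.50 and 3.95 CPM in HFD and 2.30, 3.04 and 1.90 CPM in HFD + EC359, without overlap between groups. Corrected for length, Tigit stood in LFD at 7.94 ± 0.475 CPM per kb (SD, n = 3), above Lck (2.35) and Cd3e (1.44). Which cells carried the Tigit transcripts was not tested. The log2 fold changes of Tigit were -0.73 ± 0.207 with the diet (adjusted p = 0.00357) and -0.93 ± 0.238 with EC359 (adjusted p = 0.00341, edgeR's quasi-likelihood test).

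Of the granzyme genes beside Gzmb, Gzmm had 8, 15 and 9 counts in LFD and did not pass the test with the diet (-0.11, adjusted p = 0.832). Gzmd and Gzmf were at most at 2 counts in any LFD library. Gzmd had 1, 1 and 0 counts in LFD, 8, 7 and 3 in HFD and 6, 9 and 4 in HFD + EC359. Gzmf had 0, 2 and 0, then 6, 8 and 8, then 6, 8 and 7 counts. In both genes all libraries of the 60 kcal% fat groups exceeded all LFD libraries. Gzmd and Gzmf were below the filter and passed in HFD against LFD when all genes with at least 1 count were fitted (adjusted p = 0.0202 and 0.00527). In the same edgeR fit Gzmg passed too (adjusted p = 0.0230). Gzma (-0.69, adjusted p = 0.520), Gzmc (1.89, adjusted p = 0.167) and Gzme (1.11, adjusted p = 0.381) did not pass, and Gzmk had at most 1 count in a library. Gzmd and Gzmf are close paralogs of each other, and their counts are uncertain where read pairs were split between them. All these granzyme genes were chosen after their values were seen.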
